A study of Homo sapiens with 6 samples.

Results

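The genes described here encode proteins that wet epithelia and glands secrete or carry as part of their surface defence: DMBT1, BPIFB1, BPIFB2, MUC5B, LCN2, SLPI, PIGR, LTF, DCD and LACRT. They are 10 of the 26484 gene symbols counted in MCF10CA1a cells, an invasive human breast cancer line of the MCF10 progression series. The genes were listed by name, and the list was chosen by measured values: earlier results of the same comparison of gels, over all libraries and by replicate number, were known when it was drawn up. Their differences between gels are therefore given as a description. Where a fit across all genes put one of them past its threshold, that is recorded as the output of the fit, and it is no test of genes chosen on the same values. The study asked how gene expression differs between cells kept on a stiff and on a soft gel. The stiff group comprised 3 libraries from cells on 8000 Pa dishes and the soft group 3 libraries from cells on 500 Pa dishes. Both gels were conjugated with growth factor-reduced Matrigel at 0.14 mg/ml, both groups had their medium changed on day 4, and RNA was taken on day 5. The labels describe the RNA as cytosolic and the replicates as biological. All 6 libraries come from 1 cell line, so the spread between them is a spread between cultures and not between donors or tumours.

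Mucosal surfaces and exocrine glands protect themselves with a layer of secreted proteins. Gel-forming mucins build the layer, scavenger-receptor and BPI-fold proteins bind microbes or their lipids within it, and lipocalins and transferrin-type proteins withhold iron. Antiproteases limit damage by leukocyte enzymes, the polymeric immunoglobulin receptor carries antibodies across the epithelium, and small gland peptides of sweat and tears act on microbes or on the epithelium itself. The mammary gland is itself a modified skin gland and secretes several of these proteins into milk.

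Promoter sequences of 8 of the 10 genes were found by symbol in the RefSeq table (GRCh38.p14), each running from 250 bases before to 50 bases after the annotated start. MUC5B and SLPI are named only. Those of 4 genes are shown, DMBT1 as the 1 tested gene of the list that was higher on the stiff gel in every pair, LCN2 as a textbook inflammation-responsive gene, and DCD and LACRT because their transcripts varied together over the libraries. In DMBT1 the capitals mark the letters TATAAA on either strand and a match to the NF-kB consensus. In LCN2 they mark an NF-kB consensus match and a match to TTNNGNAA, a pattern bound by C/EBP factors. DMBT1 and LACRT also hold this pattern, where it is left unmarked. In DCD and LACRT they mark runs of 10 or more letters that the pair share.
DMBT1: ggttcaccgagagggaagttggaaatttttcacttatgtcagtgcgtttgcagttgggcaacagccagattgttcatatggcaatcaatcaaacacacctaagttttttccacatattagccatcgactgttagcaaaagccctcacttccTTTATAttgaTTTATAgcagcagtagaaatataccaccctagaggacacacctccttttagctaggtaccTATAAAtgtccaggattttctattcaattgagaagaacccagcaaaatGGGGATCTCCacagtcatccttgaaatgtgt
LCN2: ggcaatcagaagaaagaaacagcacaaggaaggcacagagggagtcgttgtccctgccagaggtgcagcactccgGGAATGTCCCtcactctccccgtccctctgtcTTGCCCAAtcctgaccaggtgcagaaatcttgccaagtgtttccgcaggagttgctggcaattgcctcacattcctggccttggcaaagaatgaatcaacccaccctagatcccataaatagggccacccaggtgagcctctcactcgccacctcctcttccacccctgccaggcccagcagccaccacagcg
DCD: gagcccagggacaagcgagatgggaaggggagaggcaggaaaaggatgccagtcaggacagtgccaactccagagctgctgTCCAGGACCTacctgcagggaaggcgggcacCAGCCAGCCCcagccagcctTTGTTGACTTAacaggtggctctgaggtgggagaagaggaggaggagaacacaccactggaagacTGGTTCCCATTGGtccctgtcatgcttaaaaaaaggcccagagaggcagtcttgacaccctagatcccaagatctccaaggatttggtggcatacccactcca
LACRT: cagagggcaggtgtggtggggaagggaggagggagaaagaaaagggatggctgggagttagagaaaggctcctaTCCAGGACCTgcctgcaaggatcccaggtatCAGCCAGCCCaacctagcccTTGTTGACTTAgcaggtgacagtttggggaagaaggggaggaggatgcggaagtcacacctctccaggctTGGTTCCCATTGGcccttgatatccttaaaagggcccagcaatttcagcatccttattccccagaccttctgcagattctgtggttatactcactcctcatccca

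The DMBT1 window lies at chr10:122560504-122560803 on the plus strand and the LCN2 window at chr9:128149203-128149502 on the plus strand. The DCD window lies at chr12:54648316-54648615 and the LACRT window at chr12:54634846-54635145, both on the minus strand. In DMBT1 the letters TATAAA began at position -29 from the annotated start, with further matches on the other strand at -99 and -89, and the NF-kB match began at position 20. In LCN2 the NF-kB match began at -175 and the C/EBP pattern at -143, both on the other strand, the C/EBP pattern overlapping a CCAAT match at -139. The C/EBP pattern also occurred, on the strand printed, at -197 in DMBT1 and -102 in LACRT. The windows of BPIFB2 and LTF, not printed, held it too. Over all 27305 promoters of the table, read on both strands, 11.95% held TATAAA, 5.72% the NF-kB consensus, 37.2% TTNNGNAA and 35.7% CCAAT. DCD and LACRT shared 4 runs with 44 bases in all, and the longest, tggttcccattgg, had 13 bases and contained a CCAAT match on the other strand at -45 in DCD and -47 in LACRT. Aligned over their whole length, the windows of DCD and LACRT were identical in 66.1% of columns (213 of 322), against 40.5% to 49.9% for the other 27 pairs among these 8 promoters. Of the other 27304 promoters, 15.7% shared a run of 10 with DCD and 0.674% shared a run of 13. Among the 8 promoters LCN2 and DCD shared a longer run, of 14 bases, and BPIFB2 and LTF also shared a run of 13. These matches describe the letters of the windows and not binding, and the files do not show which start site the cells used.

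The libraries held 9068926 to 10739449 counts at 8000 Pa and 8305601 to 18779742 at 500 Pa, and levels are given as CPM, the counts scaled to a common library size. All CPM values are scaled with TMM factors, which adjust library size for composition, and on that scale a floor of 3 counts corresponds to 0.168 to 0.429 CPM. On the first principal component, which held 47.5% of the variance, 8000 Pa replicate 1 stood at 64.3 and 500 Pa replicate 1 at 3.11. The replicate 2 libraries stood at 6.38 (8000 Pa) and 12.4 (500 Pa), and the replicate 3 libraries at -36.7 (8000 Pa) and -49.4 (500 Pa). The gene loadings followed GC content with a Spearman rho of -0.77 over 11003 genes, which are not independent. The library furthest out, 8000 Pa replicate 1, was also the lowest of all for BPIFB1, BPIFB2, MUC5B, SLPI, DCD and LACRT. All 9 epithelial markers were expressed, led by KRT8 at 9061 ± 3223.5 CPM at 8000 Pa and 11249 ± 3608.5 CPM at 500 Pa (SD, n = 3 each). In bulk RNA a change in the share of cells expressing a gene and a change in RNA per cell cannot be told apart.

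Across all tested genes, the edgeR quasi-likelihood fit with stiffness alone called 0 of 11517 genes at a false discovery rate (FDR) of 0.05 (0%), with 282 genes (2.45%) at an unadjusted p under 0.05. The fit that also holds the replicate number as a block compares same-numbered cultures and called 61 genes (0.530%), 30 higher (0.260%) and 31 lower (0.269%) at 8000 Pa. Of the 10 defence genes 8 had enough counts to be tested, while PIGR and LTF did not. In the fit without the block 0 of these 8 were called, with 3 at an unadjusted p under 0.05. With the block 4 were past the threshold, DMBT1 on the higher side and BPIFB2, DCD and LACRT on the lower side at 8000 Pa. Since the list was drawn up with this contrast and its pairs known, neither these counts nor the single calls, here or for each gene, count as test results, and nothing is read from them against the background. Without the block, DESeq2 called DMBT1 alone of the 8 (0.0608% of all genes), limma-voom called 0 of them (0%), and edgeR with no filter on low counts called DMBT1 alone (0.0474%). With the block, DESeq2 called DMBT1 and DCD (0.365%), as did edgeR with an offset for GC content (0.538%).

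**Figure D1:**
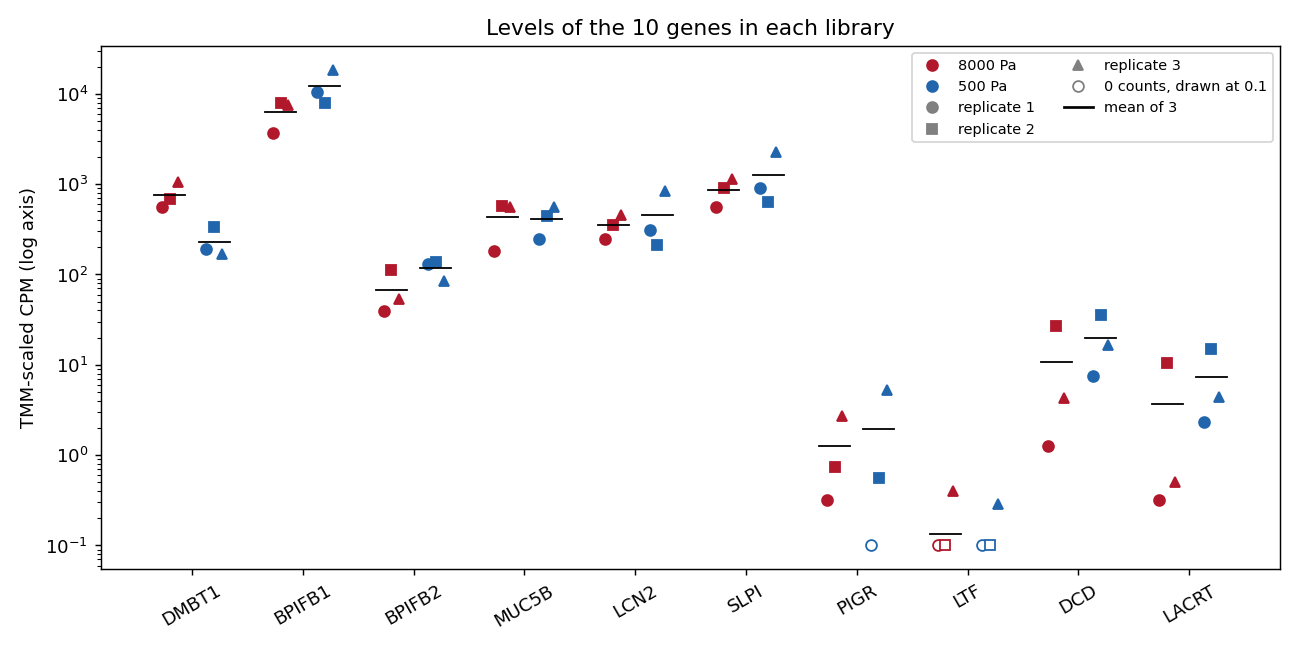
Level of each of the 10 genes in TMM-scaled CPM on a log axis, with 1 point per library (shape gives the replicate number) and a line at the mean of 3, 8000 Pa left of 500 Pa. DMBT1 lies between 561 and 1049.9 CPM at 8000 Pa, above all 500 Pa libraries, while DCD and LACRT spread widest within each gel among the 8 tested genes. Open points mark 0 counts, drawn at 0.1, and means below 0.1 CPM are not drawn.

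DMBT1 encodes a large secreted glycoprotein built from scavenger-receptor repeats that agglutinates bacteria in saliva and on airway and gut surfaces. Its level was 561, 677 and 1049.9 CPM in 8000 Pa replicates 1, 2 and 3, against 191, 334 and 167 CPM in 500 Pa replicates 1, 2 and 3. The lowest stiff library thus stood above the highest soft one, and the groups did not overlap. Groups separated in this upward direction in 4.02% of all tested genes and in the downward direction in 2.85%. The means were 763 ± 255 CPM at 8000 Pa and 231 ± 90.4 CPM at 500 Pa (SD, n = 3 each). The log2 fold change was 1.72 (SE 0.33) with stiffness alone and 1.73 (SE 0.25) with the block. Within same-numbered pairs the log2 ratio was 1.55, 1.02 and 2.65 for replicates 1, 2 and 3, so all 3 pairs pointed the same way and pair 3 had the widest gap. Of the 8 tested defence genes 5 had the same sign in all 3 pairs, as did 29.8% of all tested genes. Without replicate 3 the block fit gave 1.34 and no longer called the gene, and without replicate 1 or 2 it still did. By raw counts DMBT1 ranked between 133 and 222 among all genes in the stiff libraries and between 516 and 1258 in the soft ones.

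The gene lies on chromosome 10 from 122560665 to 122643736 (GRCh38, GENCODE 29). Its repeats resemble one another closely, and how the authors' counting treated reads that match several places is not given in the sources used here. HTRA1, a secreted serine protease gene on the same stretch of chromosome 10, had 16.8 ± 3.64 CPM at 8000 Pa and 17.7 ± 2.49 CPM at 500 Pa (log2 fold change with the block -0.09, SE 0.28, not called). PLEKHA1, also nearby, had 11.6 ± 5.17 CPM at 8000 Pa and 9.95 ± 0.299 CPM at 500 Pa and was not called either.

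The 5 tested genes whose profile over the 6 libraries lay nearest to that of DMBT1 were GJA5, IL27RA, LRIG2, XKRX and TRPV1. Likeness was taken as the root mean square difference of mean-centred log2 CPM over the 6 libraries, which was 0.19 for GJA5, 0.28 for IL27RA, 0.31 for LRIG2, 0.33 for XKRX and 0.35 for TRPV1. GJA5, a connexin of gap junctions, had 23.3, 25.7 and 30.2 CPM at 8000 Pa and 6.59, 12.5 and 7.15 CPM at 500 Pa, with no overlap between the gels. It was picked for its likeness to DMBT1 over these same libraries, so this separation is no independent observation. The other 4 stood at means of 2.54 to 6.97 CPM at 8000 Pa, so their profiles rest on few counts. Among the defence genes MUC5B had the profile nearest to that of DMBT1, at 1.07, yet it was only number 6291 of the 11516 other tested genes. DCD and LACRT were far from DMBT1 at 2.14 and 2.54.

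BPIFB1 and BPIFB2 belong to the BPI-fold family, secreted relatives of the bactericidal/permeability-increasing protein. BPIFB1 is best known from airway secretions. BPIFB1 was the most abundant of the 10 genes in every library, with 3645, 7869.5 and 7511 CPM in 8000 Pa replicates 1 to 3, against 10438, 7981.5 and 18479 CPM in 500 Pa replicates 1 to 3. All stiff libraries lay below all soft ones, but the replicate 2 libraries nearly touched. The means were 6342 ± 2342.5 CPM at 8000 Pa and 12299 ± 5491 CPM at 500 Pa (SD, n = 3 each). The log2 fold change was -0.96 (SE 0.37) with stiffness alone and -0.95 (SE 0.28) with the block, and neither fit called it. With libraries left out the value ran from -1.19 to -0.50 with stiffness alone and from -1.41 to -0.64 with the block. The pair ratios were -1.52, -0.02 and -1.30 on the log2 scale, and the second of these is close to no difference. By raw counts the gene ranked 13, 8 and 9 among all genes in the stiff libraries and 5, 7 and 3 in the soft ones. It made up 69.6% to 74.7% of the summed CPM of the 10 genes at 8000 Pa and 81.5% to 85.3% at 500 Pa.

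BPIFB2 was far lower, with 39.3, 111 and 53.3 CPM in 8000 Pa replicates 1 to 3, against 131, 137 and 85.5 CPM in 500 Pa replicates 1 to 3. The groups overlapped, because the stiff replicate 2 library stood above the soft replicate 3 library. Its log2 fold change was -0.80 (SE 0.37) with stiffness alone and -0.90 (SE 0.24) with the block, where it was past the threshold on the lower side. The pair ratios were -1.73, -0.30 and -0.68 on the log2 scale. Without replicate 1 the block fit gave -0.47 and no call, without replicate 3 it gave -0.96 and no call, and with the GC offset it gave -0.66 and no call. DESeq2 with the block did not call it.

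The BPI-fold genes sit together on chromosome 20, BPIFB2 from 33007600 to 33023709 and BPIFB1 from 33273480 to 33309878, with 249770 bases between them. Of their relatives in between, BPIFA1, an abundant airway surface protein, had 221 ± 108 CPM at 8000 Pa and 208 ± 76.3 CPM at 500 Pa (log2 fold change with the block 0.066, SE 0.23). BPIFA2, a protein of saliva, had 38.3 ± 13.2 CPM at 8000 Pa and 25.7 ± 5.88 CPM at 500 Pa (0.55, SE 0.25). BPIFB4 was scarce, at 0.947 ± 0.556 CPM at 8000 Pa and 1.63 ± 0.959 CPM at 500 Pa (-0.78, SE 0.62). BPIFA1, BPIFA2 and BPIFB4 were not called in either fit. These genes are paralogs, and reads shared between them would be uncertain.

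**Figure D2:**
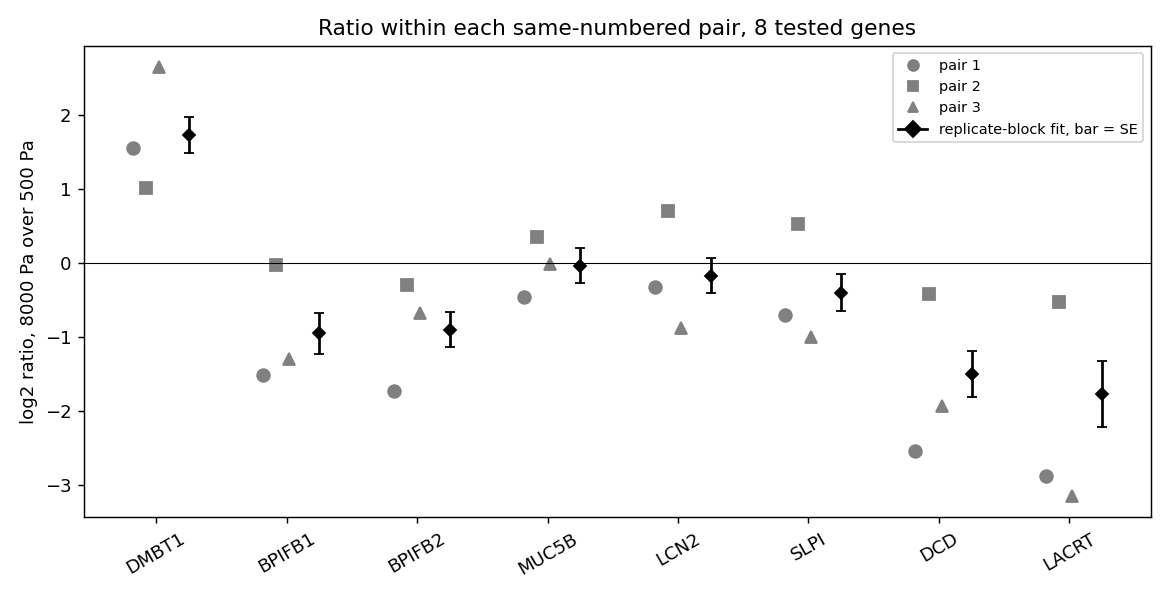
Log2 ratio of 8000 Pa over 500 Pa in each same-numbered pair (grey, shape gives the pair) and the replicate-block fold change with its standard error (black), for the 8 tested genes. The standard error rests on a spread shared by all genes and not on the spread of the 3 pairs shown. DMBT1 lies above 0 in all 3 pairs, and BPIFB1, BPIFB2, DCD and LACRT lie below 0 in all 3, though BPIFB1 is at -0.02 in pair 2.

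MUC5B encodes a gel-forming mucin of airway, salivary and cervical mucus. It had 182, 572 and 552 CPM in 8000 Pa replicates 1 to 3, against 249, 446 and 555 CPM in 500 Pa replicates 1 to 3. The ranges largely coincided, and the replicate 1 library was the lowest on either gel. The log2 fold change was 0.06 (SE 0.40) with stiffness alone and -0.03 (SE 0.24) with the block, and its sign was not stable. The pair ratios of -0.45, 0.36 and -0.01 on the log2 scale point in different directions. Its exons had the highest GC content of the 10 genes at 64.5%, and the block fit with a GC offset gave 0.35. MUC5B lies on chromosome 11 from 1223066 to 1262172 and overlaps MUC5B-AS1 and MIR6744 in the annotation, so without stated strand use its counts can include antisense reads. Its neighbour MUC5AC, the other main airway mucin, had 139 ± 94.0 CPM at 8000 Pa and 160.5 ± 71.5 CPM at 500 Pa and was not called.

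LCN2 encodes lipocalin 2, which binds bacterial siderophores and so withholds iron, and SLPI encodes an inhibitor of neutrophil elastase and related proteases. LCN2 had 246, 350.2 and 456 CPM in 8000 Pa replicates 1 to 3, against 309, 214 and 836 CPM in 500 Pa replicates 1 to 3. SLPI had 564, 909.9 and 1128 CPM in 8000 Pa replicates 1 to 3, against 914, 631 and 2261 CPM in 500 Pa replicates 1 to 3. For both genes the soft replicate 3 library was the highest of all 6 and the soft replicate 2 library the lowest of its gel, so the stiff values lie within or near the soft range. With stiffness alone the log2 fold change was -0.37 (SE 0.43) for LCN2 and -0.55 (SE 0.42) for SLPI. With the block it was -0.17 (SE 0.24) for LCN2 and -0.40 (SE 0.25) for SLPI, and neither gene was called in any fit. Without the soft replicate 3 library the value with stiffness alone was 0.47 for LCN2 and 0.21 for SLPI, the opposite sign.

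The profiles of LCN2 and SLPI over the 6 libraries almost coincided. Their mean-centred log2 CPM differed by a root mean square of 0.13, and of the 11516 other tested genes SLPI was number 3 in likeness to LCN2 and LCN2 number 7 in likeness to SLPI. In both, pairs 1 and 3 ran lower on the stiff gel and pair 2 ran higher, with log2 ratios of -0.33, 0.71 and -0.88 for LCN2 and -0.70, 0.53 and -1.0035 for SLPI. They lie on different chromosomes, LCN2 on 9 from 128149071 to 128153455 and SLPI on 20 from 45252239 to 45254564. PI3, which encodes the antiprotease elafin near SLPI, had 259 ± 113 CPM at 8000 Pa and 196 ± 91.2 CPM at 500 Pa and was not called. BPIFB1 lay at a root mean square of 0.36 from SLPI and was number 844 in likeness to it.

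**Figure D3:**
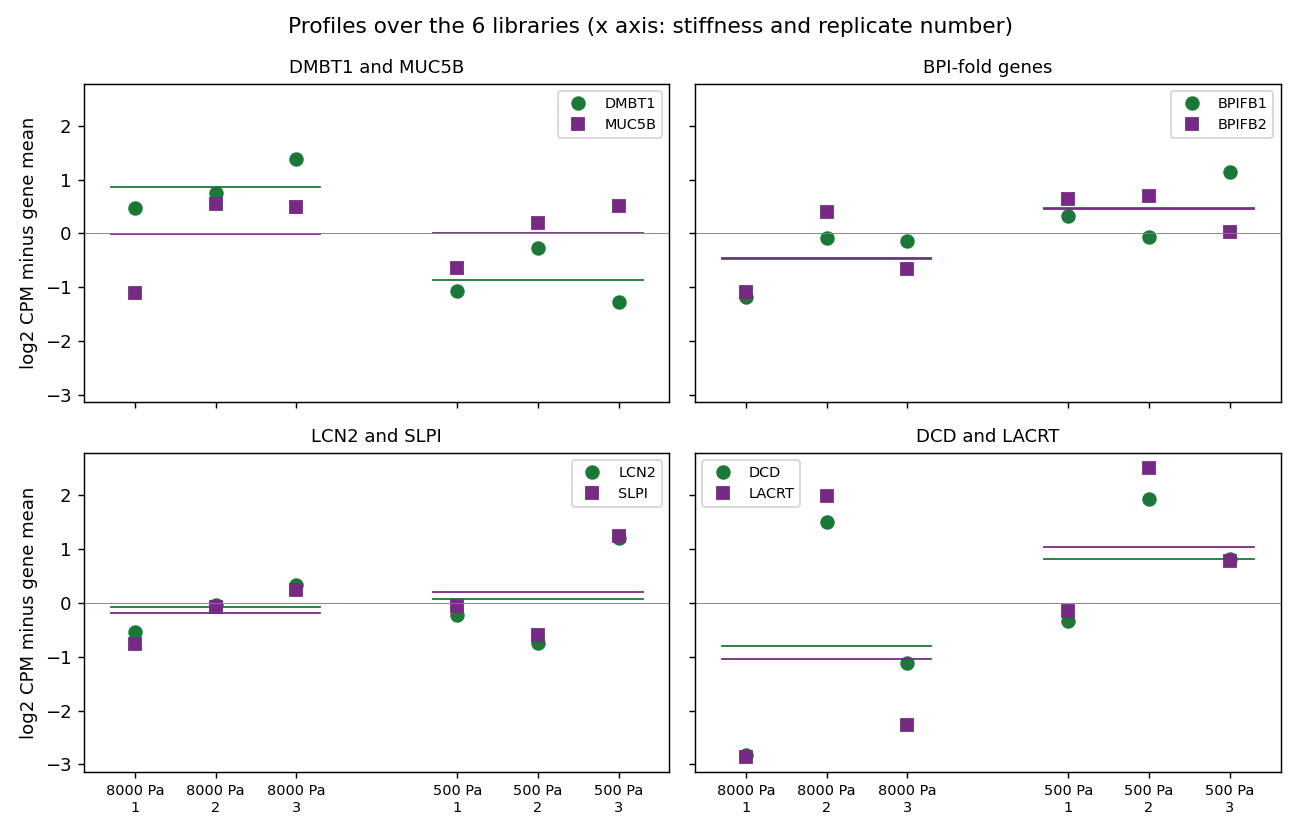
Log2 CPM of the 8 tested genes in each library after subtraction of the gene's own mean, in 4 panels of 2 genes, with lines at the mean of each gel. LCN2 and SLPI nearly overlie each other in all 6 libraries, and DCD and LACRT share their high replicate 2 libraries, while DMBT1 is above its mean in all 3 stiff libraries and below it in all 3 soft ones.

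DCD encodes dermcidin, the precursor of an antimicrobial peptide of sweat, and LACRT encodes lacritin, a tear glycoprotein that stimulates secretion. Both were scarce. DCD had 16, 252 and 43 counts in 8000 Pa replicates 1 to 3, against 133, 319 and 115 counts in 500 Pa replicates 1 to 3, which is 1.28, 26.6 and 4.29 CPM at 8000 Pa and 7.43, 35.7 and 16.4 CPM at 500 Pa. LACRT had 4, 98 and 5 counts in 8000 Pa replicates 1 to 3, against 42, 134 and 31 counts in 500 Pa replicates 1 to 3, which is 0.320, 10.4 and 0.498 CPM at 8000 Pa and 2.35, 14.98 and 4.43 CPM at 500 Pa. The replicate 2 library was the highest on each gel for both genes, and the stiff replicate 2 library stood above soft replicates 1 and 3, so the groups overlapped. The range within the stiff gel was 20.8-fold for DCD and 32.4-fold for LACRT, wider than the range for the other 6 tested genes, which was 1.85-fold to 3.15-fold.

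Set against the same-numbered soft culture, each stiff culture was lower. The log2 ratios were -2.54, -0.42 and -1.94 for DCD and -2.88, -0.53 and -3.15 for LACRT in pairs 1, 2 and 3. With stiffness alone the log2 fold change was -0.89 (SE 0.81) for DCD and -0.97 (SE 0.99) for LACRT, and neither was called. With the block it was -1.50 (SE 0.32) for DCD and -1.78 (SE 0.45) for LACRT, and both were past the threshold of the fit whose pairs had been known when they were listed. Both fell short of it without replicate 1, where the values were -1.06 for DCD and -1.30 for LACRT, and without replicate 3, where they were -1.25 for DCD and -1.25 for LACRT. Without replicate 2 both stayed past it, at -2.21 for DCD and -2.99 for LACRT. LACRT also fell short of it in DESeq2 with the block and with the GC offset.

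DCD and LACRT are neighbours on the minus strand of chromosome 12, DCD from 54644591 to 54648493 and LACRT from 54630811 to 54634895, with 9695 bases between them. Of the 11516 other tested genes DCD had the profile nearest to LACRT, and LACRT was number 3 in likeness to DCD, at a root mean square difference of 0.57. The ratio of DCD to LACRT counts was 4, 2.57 and 8.60 in the stiff libraries and 3.17, 2.38 and 3.71 in the soft ones, the highest of them resting on 5 LACRT counts. NCKAP1L, a gene of blood cells in the same neighbourhood, had 0 counts in all 6 libraries. By alignment identity the promoter windows of DCD and LACRT, printed above, were the most alike of the 28 pairs compared. Whether this likeness bears on their shared profile was not tested.

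PIGR encodes the receptor that carries polymeric IgA and IgM across epithelia, and LTF encodes lactoferrin, an iron-binding protein of milk and other secretions. PIGR had 4, 7 and 27 counts in 8000 Pa replicates 1 to 3, against 0, 5 and 37 counts in 500 Pa replicates 1 to 3. The replicate 3 library was the highest on each gel, at 2.69 CPM at 8000 Pa and 5.29 CPM at 500 Pa. LTF had 4 counts in 8000 Pa replicate 3 and 2 counts in 500 Pa replicate 3, and 0 in the other 4 libraries, where the floor of 3 counts corresponds to 0.168 to 0.335 CPM. Both genes fell below the filter on low counts, and no fold change is given for them. PIGR lies on chromosome 1 from 206928518 to 206946466 and LTF on chromosome 3 from 46435645 to 46485234.

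Levels of different genes were compared as CPM per kilobase of exon, averaged over all 6 libraries. The order was BPIFB1 at 3006, SLPI at 1792, LCN2 at 252, DMBT1 at 61.5, BPIFB2 at 48.8, MUC5B at 22.9, DCD at 17.4, LACRT at 6.22, PIGR at 0.366 and LTF at 0.0269 CPM per kilobase. Neighbours in this order overlapped in their ranges over the libraries, except that SLPI stood clear of LCN2 and LCN2 clear of DMBT1. BPIFB1 exceeded SLPI in 6 of 6 libraries. DMBT1 exceeded BPIFB2 in 3 of 6, namely those at 8000 Pa. DMBT1 stood at 94.5 ± 31.6 CPM per kilobase at 8000 Pa and 28.6 ± 11.2 at 500 Pa, while BPIFB2 stood at 35.7 ± 19.97 at 8000 Pa and 61.95 ± 14.7 at 500 Pa.

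**Figure D4:**
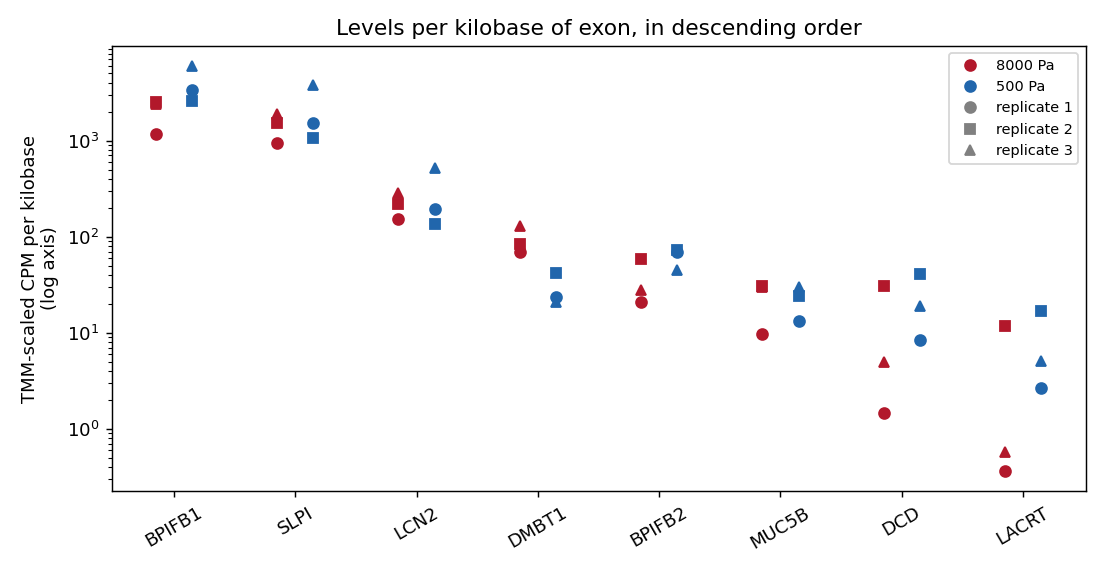
TMM-scaled CPM per kilobase of exon on a log axis for the 8 genes with counts in every library, 8000 Pa left of 500 Pa, with 1 point per library. BPIFB1 and SLPI stand above all others, and the ranges of neighbours overlap except between SLPI and LCN2 and between LCN2 and DMBT1.

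A further 173 genes of mucosal and gland defence were listed in 11 groups by role. Of these 75 were tested and 46 had 0 counts in all libraries. With stiffness alone 0 of the 75 were called by edgeR (3 at an unadjusted p under 0.05), and DESeq2 without the block and limma-voom also called 0. With the block 1 of the 75 was called, as higher, beside 0.260% of all tested genes called higher and 0.530% called in either direction. In that fit 12 of the 75 had an unadjusted p under 0.05, beside 1222 of all 11517 tested genes. The median log2 fold change over the 75 was 0.03 with stiffness alone and 0.01 with the block, beside 0.01 and -0.01 over all genes, and 38 of the 75 had a value above 0 in either fit. By group the median with the block ran from -0.54 in the gland secretoglobins (5 tested) to 0.42 in the antimicrobial peptides and enzymes (12 tested), with 0.41 in the lipocalin and iron group (2 tested).

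The gene called was S100A9, a subunit of calprotectin, which sequesters metals from microbes. It had 80.3, 135 and 182 CPM in 8000 Pa replicates 1 to 3, against 42.6, 30.7 and 119.9 CPM in 500 Pa replicates 1 to 3. The groups overlapped, since the soft replicate 3 library stood above the stiff replicate 1 library. With the block the log2 fold change was 1.20 (SE 0.24, adjusted p = 3.65e-04 by edgeR's quasi-likelihood test), with ratios of 0.91, 2.14 and 0.60 in the 3 pairs. Without replicate 2 it was 0.76 (adjusted p = 0.196 by edgeR) and without replicate 3 it was 1.57 (adjusted p = 0.0530 by edgeR), so the call was lost in both cases. With stiffness alone the adjusted p was 1.00 (log2 fold change 1.04, SE 0.46).

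Among the other groups no member was called in either fit. Of the mucin and trefoil group 7 of 19 were tested, and the most abundant were AGR2, a disulfide isomerase needed for mucin folding, at 441 ± 179 CPM at 8000 Pa and 312 ± 96.0 at 500 Pa, and the secretory lectin ZG16B at 202 ± 79.2 at 8000 Pa and 242 ± 103 at 500 Pa. Of the BPI-fold group 3 of 11 were tested, and their values stand beside BPIFB1. Of the antiproteases 7 of 19 were tested, and SERPINA3, an inhibitor of chymotrypsin-type proteases, was the most abundant at 1176 ± 542 CPM at 8000 Pa and 1224 ± 317 at 500 Pa, followed by PI3. The lipocalin and iron group had 2 of 12 tested. In it MFI2, a transferrin relative, had 18.3 ± 3.35 CPM at 8000 Pa and 17.7 ± 2.49 at 500 Pa, and APOD, a lipocalin, had 3.47 ± 0.846 at 8000 Pa and 2.08 ± 0.737 at 500 Pa.

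Of the antimicrobial peptides and enzymes 12 of 31 were tested, among them S100A9 and the cathelicidin gene CAMP at 11.4 ± 4.03 CPM at 8000 Pa and 8.30 ± 2.40 at 500 Pa. The gland secretoglobins and companions had 5 of 11 tested. Their most abundant members were AZGP1, a zinc-binding glycoprotein of secretions, at 490.5 ± 149 CPM at 8000 Pa and 633 ± 156 at 500 Pa, and SCGB2A2, the breast secretoglobin mammaglobin, at 44.9 ± 46.5 at 8000 Pa and 86.7 ± 103 at 500 Pa. Of the scavenger-receptor and lectin group 2 of 10 were tested, LGALS3BP, a scavenger-receptor domain protein, at 3158 ± 1402 CPM at 8000 Pa and 3950 ± 1917 at 500 Pa, and the galectin LGALS3 at 932 ± 139 at 8000 Pa and 1034 ± 86.7 at 500 Pa. The gels overlapped for LGALS3BP and were apart for DMBT1, but the difference between these genes was not itself tested.

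Complement genes had 7 of 13 tested, with the membrane inhibitor CD59 at 993 ± 46.3 CPM at 8000 Pa and 1027 ± 119.9 at 500 Pa and the central component C3 at 411 ± 203 at 8000 Pa and 296 ± 196 at 500 Pa. C3 was called as higher only with the GC offset, at a log2 fold change of 0.75 (adjusted p = 0.0405 by edgeR), in place of 0.57 (adjusted p = 0.319 by edgeR) with the block alone. The partners and receptors had 5 of 11 tested, led by ANXA2 at 6457 ± 454 CPM at 8000 Pa and 7200.1 ± 1371 at 500 Pa and by SDC1, a syndecan that acts as a receptor of lacritin, at 167 ± 58.1 at 8000 Pa and 160.5 ± 19.7 at 500 Pa. Of the transcriptional regulators 15 of 18 were tested, including the epithelial ETS factor ELF3 at 787 ± 241 CPM at 8000 Pa and 993 ± 330.3 at 500 Pa and STAT3 at 511 ± 64.1 at 8000 Pa and 449 ± 40.7 at 500 Pa. Microbial sensing genes had 10 of 18 tested, with the adaptor MYD88 at 162 ± 40.9 CPM at 8000 Pa and 165 ± 42.7 at 500 Pa and the TNF receptor TNFRSF1A at 166 ± 45.8 at 8000 Pa and 191 ± 34.2 at 500 Pa.

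**Figure D5:**
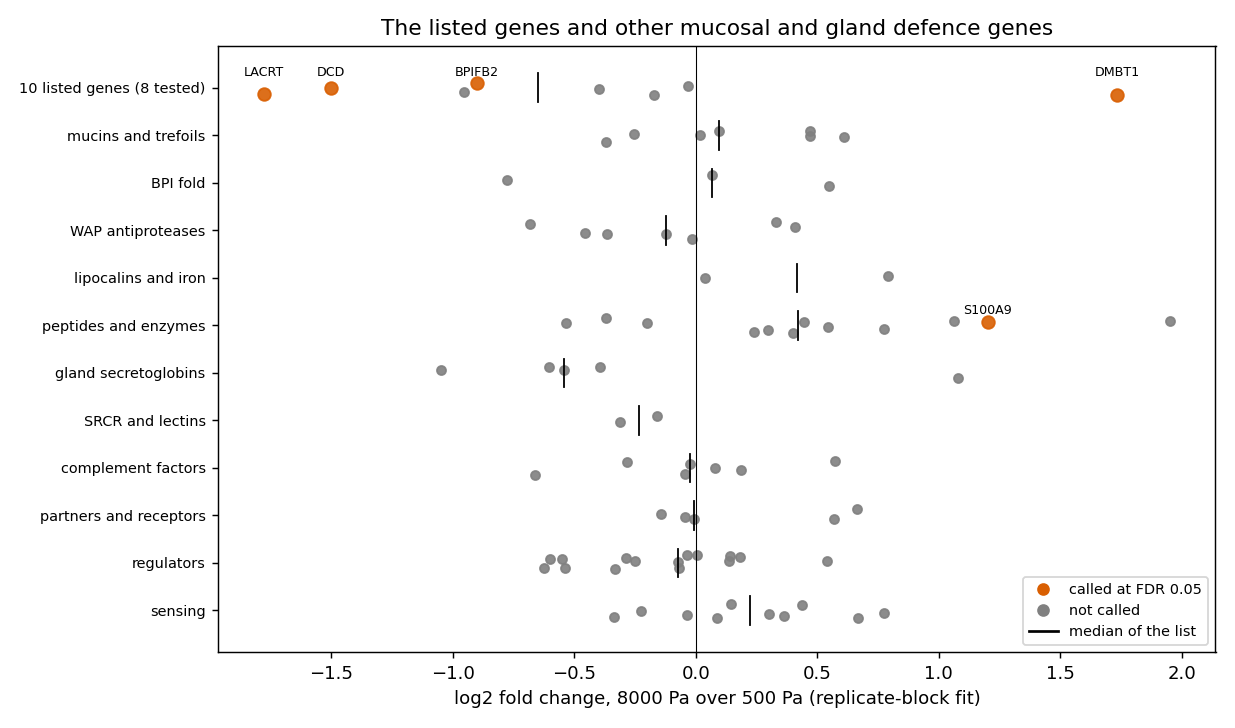
Log2 fold change of 8000 Pa over 500 Pa in the replicate-block fit for each tested gene, with the 8 tested defence genes in the top row and the 11 role groups below, and a line at each median. Orange points are called at an FDR of 0.05; outside the top row S100A9 at 1.20 is the 1 gene called.

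Several of these proteins are also made by leukocytes, so markers of other cells were examined. Of 12 neutrophil markers 9 had 0 counts in all 6 libraries (MPO, ELANE, AZU1, PRTN3, CTSG, DEFA4, MMP8, S100A12 and FCGR3B). The summed level of the 12 was 13.0 to 34.5 CPM at 8000 Pa and 8.72 to 18.8 CPM at 500 Pa, nearly all from CAMP and OLFM4, which epithelia also express. OLFM4, a secreted glycoprotein, had 11.3 ± 8.08 CPM at 8000 Pa and 4.22 ± 3.12 at 500 Pa, which did not pass with the block (adjusted p = 0.0515 by edgeR). Of 6 leukocyte markers PTPRC, CD3E and MS4A1 were at 0 counts, and the sum was 19.9 to 43.8 CPM at 8000 Pa and 21.9 to 47.2 CPM at 500 Pa, mostly CD68 and CD14. Of 4 plasma cell markers JCHAIN and TNFRSF17 were at 0 counts, MZB1 stood at 0.0665 CPM at 8000 Pa and 0 at 500 Pa, and SDC1, which epithelia express, made up the sum.

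Of the milk protein and gland markers listed, all but SPDEF had 0 or few counts. Other genes of secretory epithelium described above, among them MUC5B, AGR2 and AZGP1, were expressed. The 4 milk protein genes CSN1S1, CSN2, CSN3 and LALBA had 0 counts in every library. Of 6 salivary and mucous gland markers STATH and PRB1 were at 0 counts, AQP5, the gland water channel, stood at 0.202 ± 0.171 CPM at 8000 Pa and 0.255 ± 0.161 at 500 Pa, and SPDEF, a transcription factor of mucous cells, had 189 ± 87.0 CPM at 8000 Pa and 215 ± 81.4 at 500 Pa.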

How the data were processed

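The authors deposited 1 table per library holding 2 columns, raw counts and log2 values, for 26484 gene symbols. These deposited counts are raw read counts per gene. The submitters' processing notes list HISAT2 2.1.2, HTSeq 0.11.4, limma and DESeq2, with the build GRCh38. The deposited log2 values are TMM-scaled log2 CPM, filled in for 8593 genes. Only the 7257 of these above a minimum count in every library were compared. For them the deposited values differed from values computed here by at most 0.0388. The deposited log2 values were used only for that check. Not given in the sources used here are strand use, RNA selection and the treatment of reads with several matches.

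The counts were analysed with edgeR 4.0.16 in R 4.3.3. The filter filterByExpr (minimum count 10, minimum total 15) left 11517 genes, TMM factors were applied, and stiffness was tested by the quasi-likelihood F test and adjusted by Benjamini-Hochberg to an FDR of 0.05. Each log2 fold change (8000 Pa over 500 Pa) carries the SE of its fit, and CPM means carry the SD of 3 libraries. The labels number the replicates 1 to 3 on both gels without saying what a number marks. Deviations from the group means correlated between same-numbered libraries across genes, at 0.459, 0.215 and 0.584 for replicates 1, 2 and 3, above the 0.1 required, so the fit with the replicate block is given where it changes a call. 8000 Pa replicate 1 also correlated with 500 Pa replicate 2, at 0.223, which is above the 0.215 of same-numbered pair 2. The correlations therefore do not single out the pairing of the replicate 2 libraries. Residual degrees of freedom numbered 2 per gene in the block fit, and its prior degrees of freedom were infinite. Its p-values and SEs therefore rest on a spread shared by all genes, and not on the spread of each gene's own pairs. The SE was 0.24 for STAT3 and 0.25 for DMBT1, while the SD of their log2 pair ratios was 0.062 and 0.83. No libraries agreed within sampling noise (lowest chi-square per degree of freedom 11.0). Alternatives used DESeq2 1.42.0, limma-voom (limma 3.58.1), other scaling, no filter, left-out libraries and a GC offset.

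The members, the wider lists and the tests were chosen with earlier results of these data known. All 10 members are named, from each wider list the genes called and the 2 most abundant, from each marker list the 2 most abundant and those at 0, and the 5 genes nearest to DMBT1. Genes named as neighbours on the chromosome and those named in the last observations were chosen after their values were seen. GENCODE 29 (GRCh38) gave gene positions, exon lengths and GC content, with a GC value for 95.5% of tested genes, and promoters from RefSeq (GRCh38.p14). Intervals and floors for low counts cover counting error only.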

Additional observations from a re-analysis of the deposited data

How the results depend on the processing

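Against 0 genes called in all with stiffness alone, 61 were called with the replicate block, 8 with no filter on low counts, 7 by DESeq2, 42 by DESeq2 with the block and 62 with the block and a GC offset, and leaving out libraries gave 0 to 1 without the block and 12 to 81 with it (38 without replicate 1). Of the 10 defence genes 4, 1, 1, 2 and 2 were called in the same order, and 0 to 4 with libraries left out. Of the wider lists 1 was called with the block, 1 by DESeq2 with the block, 2 with the GC offset, and 0 to 1 with libraries left out. DMBT1 was higher, and BPIFB1, BPIFB2 and DCD lower, under all 17 alternatives run. These alternatives reuse the libraries whose values were known when the genes were listed, so the steady signs are no independent observation. MUC5B turned to -0.033 with the replicate block, -0.041 in DESeq2 with the block and -0.027 in limma-voom. It was -0.18 without 8000 Pa replicate 2, -0.15 without 8000 Pa replicate 3, -0.21 without 500 Pa replicate 1 and -0.23 in the block fit without replicate 2, and up to 0.43 with other libraries left out. LCN2 ran from -0.71 with libraries left out and turned to 0.47 without 500 Pa replicate 3, 0.24 in the block fit without replicate 3 and 0.02 with the GC offset. SLPI ran from -0.87 and turned to 0.21 without 500 Pa replicate 3 and LACRT to 0.14 without 500 Pa replicate 2. For LACRT, leaving out single libraries without the block gave log2 fold changes from -4.12 to 0.14, and for DCD from -2.84 to -0.15, the widest ranges of the 8 genes. Without 8000 Pa replicate 1 the values with stiffness alone were -0.52 for BPIFB2, -0.35 for DCD and -0.41 for LACRT. Without 8000 Pa replicate 2 they were -1.34 for BPIFB2, -2.84 for DCD and -4.12 for LACRT. The cause of these changes was not tested. Library size alone moved the median log2 fold change of all genes to 0.17, against 0.01 with TMM. Low counts limit PIGR and LTF, which fell below the filter, and LACRT in the stiff replicates 1 and 3, which hold 4 and 5 counts. The deepest library, 500 Pa replicate 1, held 0 counts of PIGR and 0 of LTF.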

Other observations

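Within the antimicrobial peptide group the widest fold change belonged to DEFB1, an epithelial beta-defensin, a gene chosen after its values were seen. It had 13, 14 and 35 counts in 8000 Pa replicates 1 to 3, against 5, 5 and 4 counts in 500 Pa replicates 1 to 3, and the groups did not overlap. The log2 fold change with the replicate block was 1.95 (SE 0.66, adjusted p = 0.191 by edgeR), and it did not pass.

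Among markers of basal epithelium, the keratin KRT17 stood at 1209.5 ± 386 CPM at 8000 Pa and 2249 ± 1001 at 500 Pa and the keratin KRT5 at 507 ± 131 at 8000 Pa and 768 ± 151 at 500 Pa. TP63, the basal transcription factor, ran the other way, at 7.61 ± 3.93 CPM at 8000 Pa and 3.66 ± 1.38 at 500 Pa. None of these 3 passed with the block (adjusted p = 0.117 for KRT17, 0.298 for KRT5 and 0.290 for TP63 by edgeR). The keratins KRT14 and KRT15 did not pass either. KRT14 had 86.7 ± 36.2 CPM at 8000 Pa and 110.04 ± 43.0 at 500 Pa. KRT15 had 8251 ± 2095.5 CPM at 8000 Pa and 10566 ± 1083 at 500 Pa, lower on the stiff gel without overlap. CDH1, the epithelial cadherin, had 407 ± 19.2 CPM at 8000 Pa and 299.6 ± 67.5 at 500 Pa without overlap between the gels. It did not pass either (adjusted p = 0.461 by edgeR). Over all tested genes the gels did not overlap for 4.02% on the higher side and 2.85% on the lower side.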
